A study of Oryza sativa Japonica Group with 21 samples.

Results

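Stamens of stage 2, the youngest stamens in the series, were set against the primordium of the third leaf in rice (Oryza sativa japonica, cultivar Zhonghua 15). The comparison took the 3 arrays labelled stage 2 stamen and the 3 labelled as the primordium of that leaf, 6 of 21 arrays in all, and every probe set other than the array's own controls, 57258 of 57381. The other 15 arrays were the just-expanded leaf and stamens of stages 3, 4, 5 and 6, with 3 arrays in each group. Leaf primordia were dissected out of embryos of seeds that had been soaked for 2 to 3 days and stamens out of spikelets, so the leaf samples come from germinating seeds and the stamen samples from flowering plants. All plants were of the same cultivar, with no mutation or treatment named, and grew in a chamber under a day of 11 h light and 13 h dark at 30 ± 2 °C or in a field, with no label giving the site of a sample. Every sample started from 50 to 300 ng of total RNA that was amplified over 2 cycles, and nothing states whether the 3 arrays of a group came from separate plants, so the p-values measure the spread between these arrays, which may be technical.

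Stamens and leaves are both lateral organs and are regarded as homologous. A lateral organ that forms in a flower takes its identity from combinations of MADS-box transcription factors: in the ABC model, class B with class C gives a stamen, and class E proteins are their partners. Young organs grow by cell division before cells enlarge and differentiate, and in an anther some inner cells become sporogenous and later enter meiosis. An embryo, in contrast, arrives at soaking with the stored transcripts of seed maturation, among them those of late embryogenesis abundant (LEA) proteins that protect dried cells. The question here is how far the youngest stamen differs from a leaf organ of like youth, and in which genes.

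Levels are the authors' log2 values after robust multi-array averaging (RMA), so a difference of 1 is a 2-fold change. No detection calls were used here, and a level of 3 to 5 is near the bottom of the scale and may be background. A probe set was called when limma's Benjamini-Hochberg adjusted p was under 0.05 and the difference was at least 2-fold. The spread behind that p is 1 estimate per probe set over all 21 arrays. Scatter in expanded leaf or later stamens can therefore keep a probe set from being called. Over all probe sets the leaf primordium arrays correlated among themselves at r = 0.981 to 0.995 and the stage 2 arrays at 0.987 to 0.993, and arrays of one organ with those of the other at 0.905 to 0.922. The 3' to 5' difference, the mean excess of the 3' over the 5' control probe sets of actin and GAPDH and a sign of RNA quality and amplification, was 3.41, 3.19 and 3.23 at stage 2 and 1.90, 1.69 and 1.64 in leaf primordium. It ranged from 1.27 to 2.69 in the later stamens and was 1.73, 1.96 and 3.37 in expanded leaf. By this mean the stage 2 arrays thus stood apart from both groups they are compared with. The ubiquitin control pair also set them apart (-0.25, -0.40 and -0.48). The cyclophilin pair was 2.54, 2.76 and 2.37 at stage 2, above leaf primordium, but reached 3.07 in later stamens. In the comparison with leaf primordium the 3' to 5' difference and the organ cannot be told apart from these 6 arrays alone. For that reason each difference was also fitted with the 3' to 5' difference as a further term in the model (a covariate). The value from that fit is given where it ends a call or turns a direction. Its slope comes from differences between arrays of the same group, over all 21 arrays. These were widest in expanded leaf, through its array at 3.37, and at stage 3 (2.44, 2.69 and 1.45). They were small at stage 2 and in leaf primordium, so the fit applies to these groups a slope set mostly by others.

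**Figure D1:**
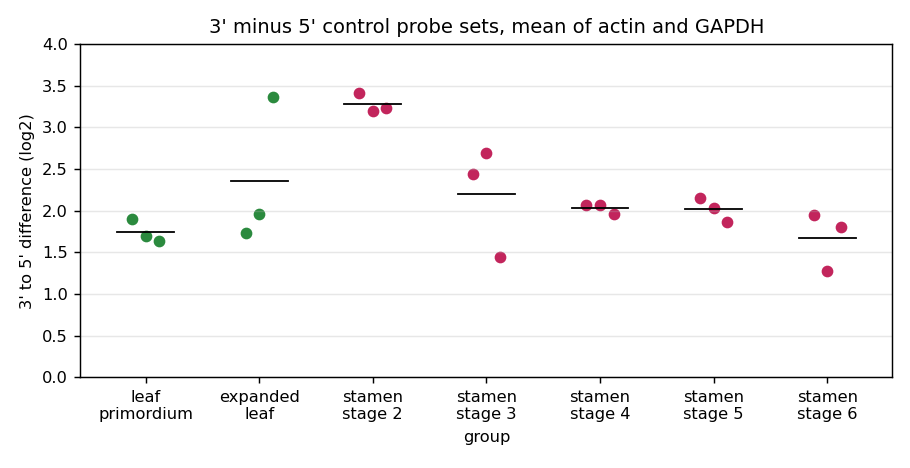
The 3' to 5' difference (log2, mean of the actin and GAPDH control pairs) of each of the 21 arrays, by group; the line is the group mean. The 3 stage 2 arrays lie between 3.19 and 3.41, above every leaf primordium and every later stamen array, and 1 expanded leaf array lies at 3.37.

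Between stage 2 and leaf primordium, 4485 probe sets were higher in the stamen (7.83% of those tested) and 4346 were lower (7.59%), so the differences ran both ways in nearly equal number. The median difference over all probe sets was -0.02. The tails were long: 639 called probe sets were at least 3 log2 units higher and 548 as much lower, and 107 and 121 were 5 units or more apart. In 4458 of the higher and 4328 of the lower probe sets the 3 stage 2 arrays did not overlap the 3 leaf primordium arrays, which held for 41.2% of all probe sets, called or not. With that covariate, 3521 were higher and 3786 lower, and 61.2% and 67.7% of the original calls were made again. Counted by gene, with the brightest probe set of each, 15.0% of 17905 annotated genes were higher and 13.1% lower. Among the 2451 genes with an informative name, from which the lists below are drawn, 18.2% were higher and 14.4% lower.

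**Figure D2:**
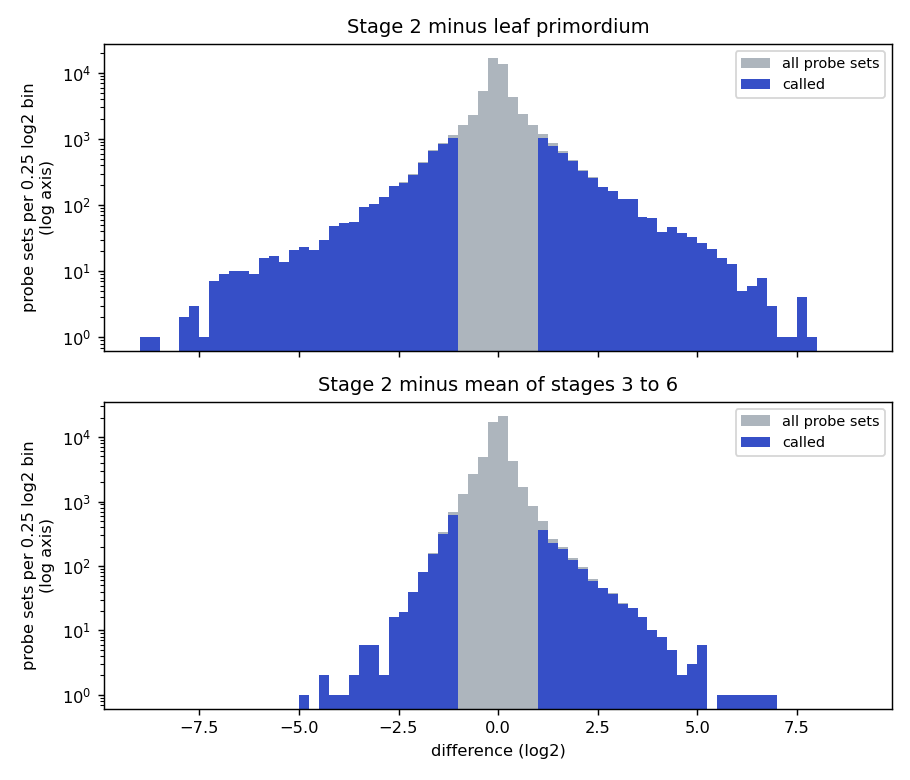
Number of probe sets (log axis) by difference in bins of 0.25 log2 units, for stage 2 minus leaf primordium (top) and stage 2 minus the mean of stages 3 to 6 (bottom); blue marks those called. The top distribution is wide on both sides, with 107 and 121 called probe sets 5 units or more apart, and the bottom one is narrower and reaches further to the right than to the left.

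The genes of floral organ identity were among the largest rises. Of the 17 genes of the floral MADS-box list 14 were higher at stage 2, none was lower and 3 were not called, with a median difference of 3.69 against 0.07 over all named genes. Fewer cells of a type and less RNA per cell cannot be told apart in such whole organs, here or in any result that follows. OsMADS8, a class E gene of the SEPALLATA type, had the largest rise of any gene with an informative name. It stood at 4.65, 4.51 and 4.60 in the leaf primordium arrays and 12.14, 12.11 and 12.53 in the stage 2 arrays, a difference of 7.67 (SE 0.14, limma adjusted p = 4.61e-16). Its close relative OsMADS7 stood at 5.70, 5.98 and 5.27 in the leaf primordium arrays and 12.62, 12.50 and 12.61 in the stage 2 arrays, a difference of 6.93 (SE 0.18, limma adjusted p = 2.45e-14). All stage 2 arrays lay more than 6 units above all leaf primordium arrays in both genes.

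All 3 class B genes were higher, by unequal amounts. OsMADS16, the APETALA3-type gene whose loss turns rice stamens into carpels, was near the bottom of the scale in leaf primordium and bright in stamens, with 5.27, 4.77 and 5.64 in the leaf primordium arrays and 12.94, 12.90 and 12.83 in the stage 2 arrays, a difference of 7.66 (SE 0.22, limma adjusted p = 6.4e-14). The 2 PISTILLATA-type genes that act with it differed by less. OsMADS4 measured 7.75, 7.50 and 6.91 in the leaf primordium arrays and 11.71, 11.78 and 11.80 in the stage 2 arrays (4.37, limma adjusted p = 2.38e-10). OsMADS2 measured 9.32, 9.32 and 9.02 in the leaf primordium arrays and 11.95, 11.99 and 11.97 in the stage 2 arrays (2.75, limma adjusted p = 2.36e-06). Arrays did not overlap in any of the 3 genes. With the covariate the difference of OsMADS2 was 1.70 (adjusted p = 0.00113).

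Both class C genes, which set stamen identity and end the floral meristem, were higher too. OsMADS58 measured 4.44, 4.64 and 4.42 in the leaf primordium arrays and 11.03, 10.90 and 10.68 in the stage 2 arrays, a difference of 6.37 (SE 0.69, limma adjusted p = 1.64e-06). OsMADS3 measured 4.76, 4.68 and 4.35 in the leaf primordium arrays and 6.50, 6.50 and 7.38 in the stage 2 arrays, a difference of 2.20 (SE 0.23, limma adjusted p = 1.18e-06). No array overlapped in either. With the covariate OsMADS58 was 3.76 (adjusted p = 0.000286), well under its first value, and OsMADS3 2.05 (adjusted p = 0.000567). The 5 class B and C genes are the stamen markers used to check the label, and their summed level (log2 of the summed linear values) was 9.51 to 9.88 in leaf primordium and 14.02 to 14.08 at stage 2. The 5 meristem markers, of which 1 was higher, summed to 9.08 to 9.30 and 9.24 to 9.77.

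Genes better known from other parts of the spikelet were higher too. OsMADS1 and OsMADS6, which act in lemma, palea and floral meristem, differed by 3.69 and 4.72 (limma adjusted p = 1.41e-06 and 9.86e-08), and OsMADS5 and OsMADS34, further SEPALLATA-type genes, by 4.87 and 2.68 (adjusted p = 2.62e-07 and 7.77e-09). The APETALA1/FRUITFULL-type genes OsMADS14 and OsMADS18 differed by 2.67 and 3.75 (adjusted p = 5.59e-07 and 1.03e-09). OsMADS15, of the same type, had 4 probe sets that did not agree: 4.29, 2.81, 1.01 and -0.01, of which the last was not called. The probe set at 1.01, the brightest over all 21 arrays and so the one counted here, missed the threshold without leaf primordium replicate 2, without stage 2 replicate 3 and with the covariate (0.89, adjusted p = 0.0108). All 5 members of the marker list for lemma, palea and other spikelet organs were thus called higher. Their summed level was 8.14 to 8.45 in leaf primordium, 11.45 to 12.13 at stage 2 and 10.80 to 11.33 in the later stamens. The part that other spikelet tissue could have in the stage 2 samples was not tested.

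The ovule and carpel genes were not called. OsMADS13 and OsMADS21, which act in ovules, were at 5.90 and 4.56 at stage 2, with differences of 0.35 and 0.14 (limma adjusted p = 0.264 and 0.518). DL, the YABBY gene that sets carpel identity and forms the leaf midrib, was 8.50 in leaf primordium and 8.06 at stage 2 (-0.44, adjusted p = 0.0508). The summed level of these 3 markers was 8.69 to 8.85 in leaf primordium and 8.29 to 8.58 at stage 2. OsMADS17, related to OsMADS6, was -0.59 (adjusted p = 0.0972). Of the 12 other MADS-box genes, OsMADS56 and OsMADS22 were higher (3.16 and 2.14; adjusted p = 3.83e-06 and 3.13e-05), OsMADS47 was lower (-2.64; adjusted p = 1.23e-06; -1.75 with the covariate) and 9 were not called. OsMADS56 is related to the flowering-time gene SOC1 of Arabidopsis, and OsMADS22 and OsMADS47 to SVP.

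**Figure D3:**
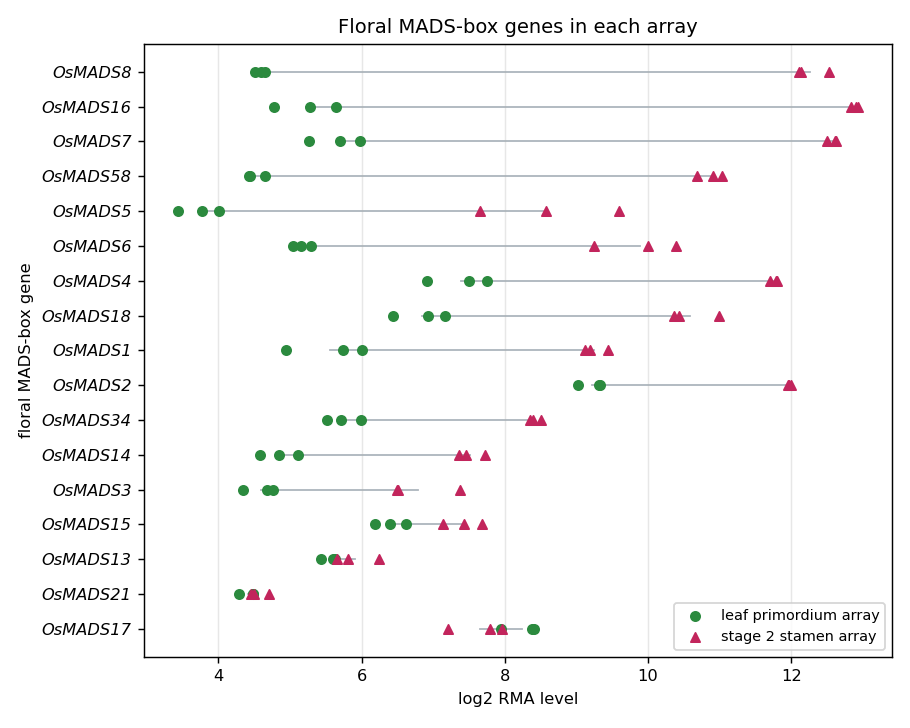
Level (log2 RMA) of the 17 floral MADS-box genes in each leaf primordium array (circles) and each stage 2 stamen array (triangles), brightest probe set of each gene, with a line between group means. The groups lie apart in the 14 genes called higher, from OsMADS15 at 1.01 to OsMADS8 at 7.67, and lie close in OsMADS13, OsMADS21 and OsMADS17.

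Genes of cell division formed the second large block. Of 11 mitotic cyclins and cyclin-dependent kinases (CDK) 7 were higher and 4 not called, with a median difference of 4.10. CYCB2-2, a B-type cyclin of the entry into mitosis, measured 3.36, 3.56 and 2.69 in the leaf primordium arrays and 10.98, 11.20 and 9.93 in the stage 2 arrays, a difference of 7.50 (SE 0.29, limma adjusted p = 3.05e-12). CYCB1-1, another B-type cyclin, differed by 6.24 and CDKB2-1, the plant-specific kinase of the late cell cycle, by 5.24 (limma adjusted p = 7.22e-13 and 2.57e-11). CDKA-1, the kinase that is present in dividing and resting cells alike, was 9.95 in leaf primordium and 9.76 at stage 2 and was not called (-0.19, adjusted p = 0.524). CKS1, a CDK subunit, was not called (1.17, adjusted p = 0.0537), but passed with the replicate number as a block (adjusted p = 0.0347).

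Of 16 D-type and other cyclins and CDK inhibitors 3 were higher, 3 lower (2 with the covariate) and 10 not called, beside 18.2% higher and 14.4% lower among all named genes. The inhibitors KRP6 and KRP5 were among the lower ones. KRP6 measured 10.72, 10.79 and 8.95 in the leaf primordium arrays and 6.44, 6.60 and 6.12 in the stage 2 arrays, a difference of -3.76 (SE 0.44, limma adjusted p = 3.59e-06). Leaf primordium replicate 3 lay under the other two but above every stage 2 array, and a second, dim probe set of KRP6 was not called (-0.69). KRP5 differed by -1.68 (limma adjusted p = 4.59e-05). CYCD3-2 and CYCD5-2, D-type cyclins that answer to growth signals, were higher by 2.97 and 2.23 (adjusted p = 3.15e-05 and 8.73e-07). A second probe set of CYCD5-2, at 6.86 in leaf primordium and 6.59 at stage 2, was not called (-0.26, limma adjusted p = 0.54).

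Of 29 genes of DNA replication 16 were higher and none was lower (with the covariate 17 and 1), with a median of 1.10. The 6 subunits of the MCM helicase, which unwinds DNA at the fork, were all higher. MCM3 measured 4.59, 4.47 and 5.53 in the leaf primordium arrays and 11.06, 11.12 and 10.88 in the stage 2 arrays, a difference of 6.16 (SE 0.27, limma adjusted p = 1.4e-11), and the other 5, MCM2, MCM4, MCM5, OsMCM6 and MCM7, differed by 4.38 to 5.05. MCM8 and MCM9, relatives outside that ring, were not called (0.09 and 0.36). PCNA, the sliding clamp of the polymerase, was bright in both organs and showed no such gap, with 11.00, 11.05 and 10.68 in the leaf primordium arrays and 11.07, 11.12 and 10.69 in the stage 2 arrays (difference 0.05, limma adjusted p = 0.98). FEN1A, a flap nuclease of the lagging strand, was not called either (-0.15, adjusted p = 0.703). The list thus held genes that were bright in both organs beside others that were dim in leaf primordium.

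Kinesins, the motors that build the spindle and the dividing cell wall, were higher in 18 of 35 genes and lower in 1, with a median of 1.26. With the covariate 14 were higher and 1 lower, with a median of 0.71. KIN12C measured 4.10, 3.41 and 3.53 in the leaf primordium arrays and 10.41, 10.52 and 10.29 in the stage 2 arrays, a difference of 6.73 (SE 0.19, limma adjusted p = 5.94e-14). KIN10A, KIN14A and KIN14E differed by 5.33, 5.27 and 5.16 (limma adjusted p = 6.41e-13, 1.19e-07 and 1.42e-13). KIN13B and KIN7C were bright in both organs and not called (0.22 and 1.26). The KIN7C arrays did not overlap, with 9.49, 10.04 and 9.99 in leaf primordium and 11.13, 11.26 and 10.93 at stage 2. Of the tubulin and actin genes only OsTUB6, a beta-tubulin, was called higher (4.28, adjusted p = 3.78e-08), pTUB22 was lower (-2.61, adjusted p = 1.36e-08) and 12 of 14 were not called.

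Of 8 genes of chromatin and histones 6 were higher and none was lower. MET1-2, which maintains CG methylation after replication, measured 5.72, 5.15 and 6.00 in the leaf primordium arrays and 11.39, 11.43 and 10.96 in the stage 2 arrays, a difference of 5.64 (SE 0.20, limma adjusted p = 8.94e-13). CMT3, a methyltransferase of CHG sites, was higher by 5.36, CenH3, the centromeric histone, by 2.87, FAS2, a subunit of the chromatin assembly factor, by 2.83, and MET1-1 by 1.96 (largest limma adjusted p of the 4 = 1.64e-05). DRM2, which sets new methylation, and EZ1, a Polycomb gene, were not called (0.18 and -0.40). The remaining higher gene, H2B.7, is also 1 of 5 H2B histones, of which 4 were higher, by 1.35 to 2.00, of which H2B.5 missed the threshold without leaf primordium replicate 3 and H2B.10 with the covariate (1.00, adjusted p = 0.212).

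Among genes of anther cell fate the higher share was near that of all named genes (18.2%). Of 9 early anther genes 2 were higher, none was lower and 7 were not called. MEL1, the Argonaute of rice germ cells, measured 6.77, 6.80 and 7.02 in the leaf primordium arrays and 11.16, 11.76 and 9.81 in the stage 2 arrays, a difference of 4.05 (SE 0.34, limma adjusted p = 8.57e-08). MSP1, a receptor kinase that keeps extra cells from becoming sporogenous, measured 7.20, 7.63 and 7.49 in the leaf primordium arrays and 9.71, 10.09 and 9.13 in the stage 2 arrays, a difference of 2.20 (SE 0.32, limma adjusted p = 4.84e-05), or 1.45 (adjusted p = 0.0284) with the covariate. BHLH142, a tapetum transcription factor, was near the floor in leaf primordium and uneven at stage 2, with 3.47, 3.64 and 3.25 in the leaf primordium arrays and 3.50, 5.72 and 4.86 in the stage 2 arrays. It was not called (1.24, adjusted p = 0.0546) but passed with the replicate number as a block (adjusted p = 0.0345) and without stage 2 replicate 1 (1.83). None of the 5 late tapetum and pollen wall genes, CP1, CYP703A3, C6, RTS and BURP13, was called.

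Meiosis genes were higher in 6 of 13, lower in 1 and not called in 6, MEL1 being counted here too, and with the covariate 5 were higher and none lower. CRC1, needed for the synaptonemal complex, measured 4.46, 4.60 and 4.99 in the leaf primordium arrays and 7.78, 7.81 and 8.36 in the stage 2 arrays, a difference of 3.30 (SE 0.21, limma adjusted p = 3.02e-09). OsRPA32-3, a subunit of the single-strand binding protein, differed by 1.91 (limma adjusted p = 1.91e-08). MER3, a helicase of crossover formation, was called at 2.04 (adjusted p = 0.0292), but lost the call when leaf primordium replicate 1 or 2 or stage 2 replicate 2 or 3 was left out, and with the covariate (0.64, adjusted p = 0.744). OsSPO11-4 and MRE11, which act on double-strand breaks, were not called (-0.28 and 0.50).

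The small RNA pathway was higher in 7 of 18 genes and lower in 1. AGO18, an Argonaute found in grasses, measured 5.11, 4.30 and 5.19 in the leaf primordium arrays and 10.23, 10.57 and 9.77 in the stage 2 arrays, a difference of 5.32 (SE 0.54, limma adjusted p = 6.91e-07). A second probe set of the gene was dim in both organs and was not called (-0.04), and with the covariate the first was 3.48 (adjusted p = 0.000242). SHL2, the RNA-dependent RNA polymerase that makes trans-acting siRNA, and OsRDR4 were higher by 2.81 and 3.19 (adjusted p = 1.2e-07 and 2.73e-09). OsRDR2, whose Arabidopsis counterpart makes the precursors of heterochromatic siRNA, was the only lower member, with 9.35, 9.86 and 10.41 in the leaf primordium arrays and 6.05, 5.36 and 6.07 in the stage 2 arrays, a difference of -4.05 (SE 0.36, limma adjusted p = 1.36e-07). AGO1B and AGO4A, bright in both organs, were not called (0.70 and 0.39).

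Genes of seed drying were among the large falls from leaf primordium to stage 2. Of 8 LEA and dehydrin genes 5 were lower, none was higher and 3 were not called, with a median of -4.11. EM, a LEA protein of the mature embryo, measured 13.99, 13.88 and 14.04 in the leaf primordium arrays and 7.30, 6.86 and 7.16 in the stage 2 arrays, a difference of -6.86 (SE 0.27, limma adjusted p = 4.46e-12). RAB16C, a dehydrin, measured 13.14, 12.99 and 12.64 in the leaf primordium arrays and 6.57, 6.41 and 6.57 in the stage 2 arrays, a difference of -6.40 (SE 0.25, limma adjusted p = 3.94e-12), and RAB16D and rab25, of the same kind, differed by -5.36 and -4.64. In all 4 genes the stage 2 arrays lay far below the leaf primordium arrays.

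Other members stayed bright at stage 2. LEA19 measured 13.46, 13.52 and 13.71 in the leaf primordium arrays and 10.12, 9.76 and 10.06 in the stage 2 arrays, a fall that was called (-3.58, adjusted p = 0.0239) yet missed the threshold when any 1 of the 6 arrays was left out. With the covariate its difference was -7.50 (adjusted p = 0.000156) and that of rab25 -7.08 (adjusted p = 0.000156). The dehydrins RAB21, RAB16B and Dhn1 were not called. RAB21 measured 13.11, 13.11 and 13.05 in the leaf primordium arrays and 12.93, 12.93 and 12.92 in the stage 2 arrays, and the means of RAB16B and Dhn1 were 12.92 and 11.24 in leaf primordium and 11.88 and 12.08 at stage 2. OsVP1, the transcription factor that runs seed maturation, measured 8.85, 9.18 and 8.86 in the leaf primordium arrays and 3.55, 3.19 and 3.51 in the stage 2 arrays, a difference of -5.54 (SE 0.12, limma adjusted p = 2.46e-15). It was the only gene called in a list of 10 that was drawn up for seed storage and oil bodies. No oil body gene was among the 10. GLUA-1, a glutelin, was near the floor in both organs (3.93 and 3.99). The 6 markers of embryo and scutellum summed to 15.46 to 15.59 in leaf primordium, 11.99 to 12.87 at stage 2 and 8.88 to 12.24 in the later stamens, with 4 of 6 lower at stage 2. The brightest of the 6 at stage 2 was AMY3D, an alpha-amylase, which was not called (-1.13). The 6 held neither RAB16A, which had been planned as a marker, nor RAB21. RAB21 alone was brighter at stage 2 than the sum of the 6 on every array. The leaf primordia came from embryos, and the part of leftover embryo transcripts or tissue in these falls was not tested.

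Of 56 genes of the protein phosphatase 2C family, some of which hold the brakes on abscisic acid signalling, 11 were higher and 10 lower. These counts stood beside 18.2% higher and 14.4% lower among all named genes, and the range was -5.60 to 2.59. With the covariate 4 were higher and 6 lower. OsPP2C51, which promotes germination in rice, measured 11.03, 11.19 and 11.43 in the leaf primordium arrays and 5.21, 5.64 and 6.02 in the stage 2 arrays, a difference of -5.60 (SE 0.33, limma adjusted p = 7.98e-10). OsPP2C59 and PP2C68 differed by -4.97 and -4.02 (adjusted p = 4.89e-07 and 6.68e-05), and OsPP2C07 was higher (2.59, adjusted p = 0.000354). OsPP2C45 had the largest fall of any gene with an informative name by 1 of its probe sets, with 11.46, 12.04 and 12.21 in the leaf primordium arrays and 3.73, 4.01 and 4.26 in the stage 2 arrays (-7.90, SE 0.78, limma adjusted p = 5.36e-07). Its other probe set was bright and level, 11.51 and 11.28 (-0.22), so the fall was seen in 1 of 2 probe sets of that gene.

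Of 18 abscisic acid genes 4 were higher and 5 lower, or 2 and 4 with the covariate, beside the same 18.2% and 14.4% of all named genes. The kinases OsSAPK10 and OsSAPK1 fell by 2.36 and 2.01 on the log2 scale (limma adjusted p = 2.37e-07 and 1.73e-08). The 2 hydroxylases that break the hormone down differed in opposite directions. ABA8OX1 measured 10.12, 10.73 and 11.13 in the leaf primordium arrays and 8.14, 8.12 and 7.93 in the stage 2 arrays, a difference of -2.60 (SE 0.38, limma adjusted p = 5.23e-05), or -1.71 (adjusted p = 0.0302) with the covariate. ABA8OX2 measured 6.72, 6.75 and 6.27 in the leaf primordium arrays and 10.03, 10.23 and 9.31 in the stage 2 arrays, a difference of 3.28 (SE 0.72, limma adjusted p = 0.00195). Neither gene overlapped between the organs.

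Of 23 heat shock proteins 6 were lower and 2 higher. HSP23.2, a small heat shock protein, measured 11.57, 11.03 and 9.92 in the leaf primordium arrays and 3.82, 3.41 and 5.84 in the stage 2 arrays, a difference of -6.48 (SE 0.55, limma adjusted p = 9.27e-08). HSP26.7, HSP16.9A and HSP18.8 differed by -5.16, -4.01 and -3.34, whereas the abundant HSP81-2 and HSP81-3, of the HSP90 type, were not called (-0.09 and 0.00). With the covariate 12 of the 23 were lower. HSFB4B, a heat shock factor, measured 11.30, 11.26 and 11.23 in the leaf primordium arrays and 6.57, 6.77 and 6.67 in the stage 2 arrays, a difference of -4.59 (SE 0.17, limma adjusted p = 1.46e-12). In the ERF and DREB list 7 of 12 were lower and 1 was higher. DREB1G and DREB1E, factors of the cold response, fell by 3.24 and 3.10 on the log2 scale (adjusted p = 0.00013 and 5.58e-05), DREB1B had 11.43, 11.00 and 11.60 in the leaf primordium arrays and 9.97, 8.04 and 7.20 in the stage 2 arrays and was -1.78 (adjusted p = 0.254) with the covariate, under which DREB1E was -1.91 (adjusted p = 0.0351). DREB2D was higher by 3.20 (adjusted p = 1.21e-08), while a second, dim probe set of the gene was not called (0.13).

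Genes of sugar breakdown and fermentation, which soaked seeds use under low oxygen, were lower in 8 of 17 and higher in 1, with a median of -1.23. The sucrose synthases OsSUS5 and OsSUS3 fell by 3.79 and 2.58 on the log2 scale (limma adjusted p = 5.18e-10 and 1.63e-05). PDC1, a pyruvate decarboxylase, was lower (-2.36, adjusted p = 0.00359) but not with the covariate (-2.19, adjusted p = 0.101), and under that fit 4 of the list were lower. PPDKB, pyruvate orthophosphate dikinase, went the other way, with 7.21, 7.08 and 7.77 in the leaf primordium arrays and 11.69, 11.19 and 12.18 in the stage 2 arrays, a difference of 4.33 (SE 0.48, limma adjusted p = 2.13e-06). Among other falls with no overlap were MT2A, a metallothionein, by 4.55 (of its other 3 probe sets 1 was lower and 2 were dim and not called), AAH, an enzyme of ureide breakdown, by 5.15, and YSL16, a metal transporter, by 4.58.

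Transcription factors of organ shape were called in part. OsYABBY5 and OsYABBY4, of the YABBY family that marks one side of lateral organs in Arabidopsis, were lower. OsYABBY5 measured 12.13, 12.50 and 12.55 in the leaf primordium arrays and 9.96, 9.70 and 9.58 in the stage 2 arrays, a difference of -2.64 (SE 0.43, limma adjusted p = 0.000141), and OsYABBY4 differed by -2.11 (adjusted p = 0.000389). The list of 13 polarity genes held 2 higher and 3 lower, and that of 14 meristem and homeobox genes 2 higher and none lower. These counts stood beside 18.2% higher and 14.4% lower among all named genes. OsHox9 and HOX33, of the HD-ZIP III class of the opposite side, were the higher polarity genes (1.80 and 1.64, limma adjusted p = 9.04e-05 and 1.42e-05). OSH1, the KNOX gene of the shoot meristem, was not called, with 7.88, 8.37 and 8.17 in the leaf primordium arrays and 8.66, 8.38 and 9.18 in the stage 2 arrays (0.60, adjusted p = 0.531). OsWOX11, known from crown root formation, was dim in leaf primordium, with 4.58, 4.80 and 4.47 in the leaf primordium arrays and 8.94, 8.36 and 8.99 in the stage 2 arrays, a difference of 4.14 (SE 0.32, limma adjusted p = 3.33e-08). FON1, the receptor that limits floral meristem size, was higher by 1.19 (adjusted p = 0.000176), but under 2-fold with the covariate (0.91, adjusted p = 0.0427), and the other 12 of 14 meristem and homeobox genes were not called, 1 of the list being lower with the covariate.

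Of 30 growth-regulating, SPL and TCP factors 9 were higher and 8 lower, or 7 and 8 with the covariate. OsSPL14, which shapes tillering and panicle branching, measured 4.16, 4.62 and 4.70 in the leaf primordium arrays and 9.53, 9.50 and 10.05 in the stage 2 arrays, a difference of 5.20 (SE 0.23, limma adjusted p = 1.62e-11). PCF8, a TCP factor, measured 4.76, 4.67 and 4.66 in the leaf primordium arrays and 9.17, 9.94 and 8.65 in the stage 2 arrays, a difference of 4.56 (SE 0.69, limma adjusted p = 6.39e-05). SPL9 was higher by 2.92 and PCF7, another TCP factor, differed by -2.52 (limma adjusted p = 1.06e-09 and 0.00109). OsPID, the PINOID-type kinase of auxin transport, measured 6.20, 5.84 and 5.62 in the leaf primordium arrays and 10.79, 11.03 and 11.22 in the stage 2 arrays, a difference of 5.13 (SE 0.56, limma adjusted p = 1.68e-06).

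Photosynthesis genes had calls in both directions. Of 8 genes of the light reactions 1 was higher and none lower, of 8 Calvin cycle genes 1 was higher and 1 lower, and of 16 genes of chlorophyll synthesis and chloroplast regulation 1 was higher and 3 were lower, beside 18.2% and 14.4% of all named genes. With the covariate these were none and none, 2 and none, and none and 2. CAB2R, a light-harvesting protein, measured 5.28, 5.42 and 5.35 in the leaf primordium arrays and 9.10, 8.08 and 10.52 in the stage 2 arrays, a difference of 3.89 (SE 0.79, limma adjusted p = 0.00113), and 3.56 (adjusted p = 0.0582) with the covariate. A second probe set of CAB2R was not called (2.46, limma adjusted p = 0.152). RBCS, the small Rubisco subunit, was higher by 2.15 (adjusted p = 0.000776) by 1 of 4 probe sets, and the other 3 differed by 0.52, -0.03 and -0.02 and were not called. GLK1 and GLK2, the factors that start chloroplast development, were both lower at stage 2. GLK1 measured 6.67, 7.47 and 8.17 in the leaf primordium arrays and 4.49, 4.50 and 5.11 in the stage 2 arrays, a difference of -2.74 (SE 0.34, limma adjusted p = 8.49e-06), and GLK2 differed by -2.66 (adjusted p = 6.36e-06). CHLH, a subunit of magnesium chelatase, was lower (-1.48, adjusted p = 0.000179) but not called with the covariate (-1.04, adjusted p = 0.0552). A second probe set of CHLH was not called (-0.99, limma adjusted p = 0.301). The 7 markers of leaf primordium and leaf had a summed level of 12.86 to 13.31 in leaf primordium and 11.46 to 12.28 at stage 2, with 2 higher, 2 lower and 3 not called.

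Hormone genes shifted member by member. In the cytokinin list 7 of 20 were higher and 2 lower. LOG, which frees active cytokinin in the meristem, was higher and its relative LOGL1 lower. LOG measured 8.58, 8.67 and 9.08 in the leaf primordium arrays and 10.92, 10.85 and 11.36 in the stage 2 arrays, a difference of 2.26 (SE 0.23, limma adjusted p = 6.82e-07), and LOGL1 11.09, 10.94 and 11.00 in the leaf primordium arrays and 8.61, 8.66 and 8.56 in the stage 2 arrays, a difference of -2.40 (SE 0.36, limma adjusted p = 5.77e-05), or -3.70 (adjusted p = 9.8e-07) with the covariate. OsRR1, a type-A response regulator, was higher by 2.18 (adjusted p = 0.000219) but 0.86 (adjusted p = 0.135) with the covariate, and CKX3, a cytokinin oxidase, by 2.57 (adjusted p = 0.00258) but 0.74 (adjusted p = 0.546) with it.

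In auxin signalling 10 of 43 genes were higher and 7 lower, beside 18.2% and 14.4% of all named genes. IAA9 measured 10.77, 10.98 and 10.88 in the leaf primordium arrays and 7.68, 6.95 and 7.73 in the stage 2 arrays, a difference of -3.42 (SE 0.35, limma adjusted p = 7.75e-07), and IAA13, a repressor of the same family, was higher by 2.23 (adjusted p = 2.78e-06). GH3.4, of the enzymes that conjugate auxin or jasmonate, was higher by 3.05 (adjusted p = 8.64e-05). Of 13 gibberellin genes SLRL1, a relative of the DELLA repressor, was the only one called, at -1.91 (adjusted p = 1.21e-07). Expansins (4 higher and 2 lower of 25), cellulose synthases and their relatives (2 and 3 of 31), aquaporins (5 and 1 of 25), NAC factors (none of 8) and cytosolic ribosomal proteins (3 and none of 22) stood beside 18.2% higher and 14.4% lower among all named genes. With the covariate 1 cellulose synthase gene and 2 aquaporins were lower and 1 ribosomal protein gene was higher. CSLE1, a cellulose synthase-like gene, was lower (-3.93, adjusted p = 3.49e-10).

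**Figure D4:**
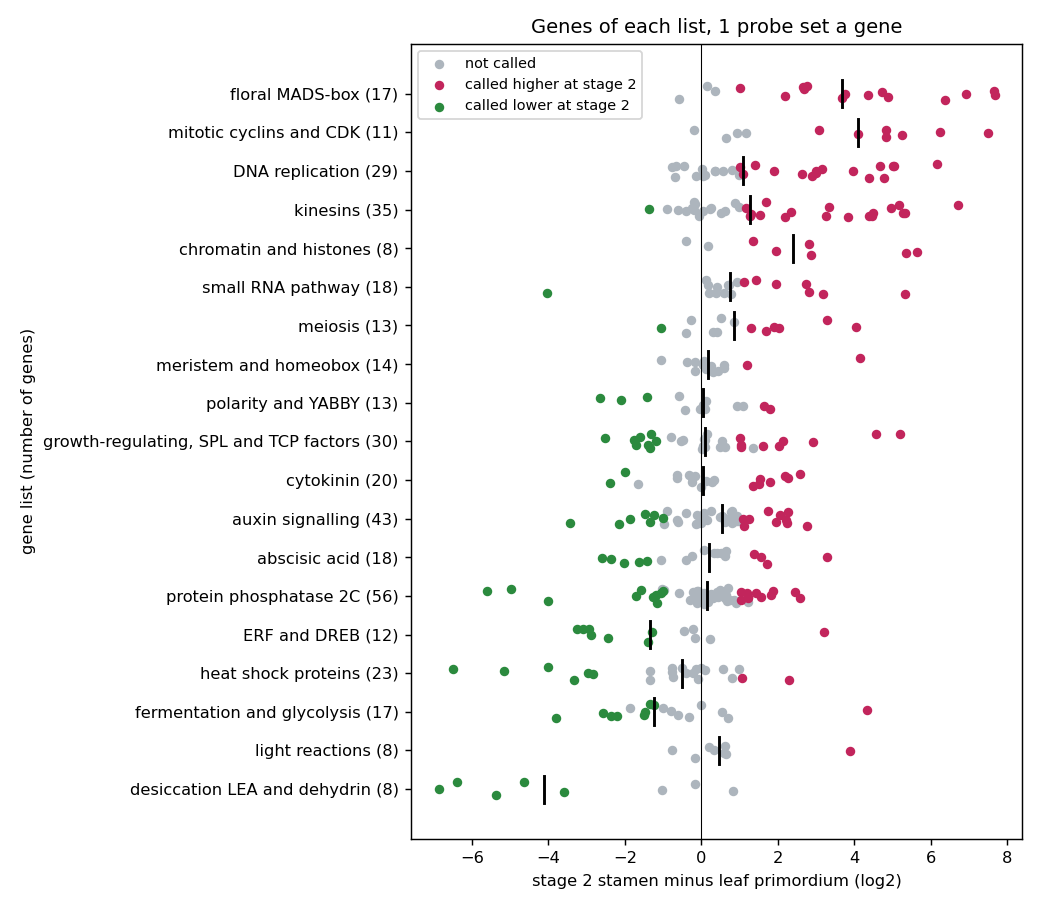
Difference between stage 2 stamen and leaf primordium (log2) for each gene of 19 lists, 1 probe set a gene, with called genes coloured and the list median as a black bar. The floral and mitotic lists lie to the right, with medians of 3.69 and 4.10, the LEA and dehydrin list lies to the left at -4.11, and several others, such as polarity, cytokinin and abscisic acid genes, have called members on both sides of 0.

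To see which of these features belonged to the earliest stamen and which to stamens in general, the stage 2 arrays were also set against the mean of stages 3 to 6. This comparison uses the same stage 2 arrays as the first, so the values of both are given side by side. Stage 2 was higher in 1232 probe sets (2.15%) and lower in 1259 (2.20%) of those tested. The large differences were mostly on the higher side, with 104 probe sets at 3 log2 units or more above the later stages and 19 as far below. Here the 3' to 5' difference also moved with the groups. With it as a covariate 721 probe sets were higher and 788 lower, 37.7% and 33.9% of the original calls were made again, and with the expanded leaf arrays also left out 341 and 202 were called. The part of the 3' to 5' difference in single genes was not tested beyond these fits.

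Of the 17905 annotated genes 3.40% were higher at stage 2 and 2.49% lower, and of the 2451 with an informative name 4.65% and 2.82%. Of the identity and division genes described above, OsMADS16 differed from the later stages by -0.17, MCM3 by 0.03, CYCB2-2 by -0.38 and MET1-2 by -0.17 (limma adjusted p = 0.635, 0.967, 0.334 and 0.579). Of the floral MADS-box list 3 of 17 were higher than later, none of 11 of the mitotic list was called, and 3 of 29 DNA replication genes and 3 of 35 kinesins were lower. FEN1A was 1 of these, at -1.23 (limma adjusted p = 0.000142), and -0.72 (adjusted p = 0.0815) with the covariate. The median of the mitotic list was -0.35. Its members CYCB2-1 and CDKB2-1 missed only the fold threshold, at -0.99 and -0.92 (limma adjusted p = 0.000351 and 0.00315). So did a second probe set of CYCB2-2, at -0.85 (limma adjusted p = 0.00279). OsMADS1 and OsMADS6 were among the 3 floral genes, by 1.64 and 1.64 (adjusted p = 0.00179 and 0.00217), and neither was called with the covariate. EM, RAB16C and OsVP1, far lower at stage 2 than in leaf primordium, were not called against later stamens (0.38, -0.05 and 0.23; adjusted p = 0.308, 0.923 and 0.137). The median of the 8 LEA and dehydrin genes against later stages was 1.2, with none called. LEA19 was at 2.15 and RAB21 at 2.34 (adjusted p = 0.134 and 0.11). The embryo and scutellum markers summed to 11.99 to 12.87 at stage 2, 10.63 to 12.24 at stage 3 and 8.88 to 10.58 at stages 4 to 6. The stage 2 sums lay close to the level of AMY3D alone (12.30, 11.54 and 12.58), the only 1 of the 6 markers called higher than later.

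The meristem and homeobox list had 5 of 14 genes higher than later and 1 lower, the heat shock list 5 and 1 of 23, the NAC list 4 and 0 of 8, and the early anther list none higher and 4 of 9 lower. Some genes were bright in leaf primordium and at stage 2 and dimmer in later stamens. OsTIP3;1, an aquaporin of the tonoplast whose Arabidopsis counterparts belong to seeds, measured 11.54, 11.45 and 11.04 in the leaf primordium arrays and 10.75, 10.13 and 10.62 in the stage 2 arrays and was not called between them (-0.84, limma adjusted p = 0.473). From stage 3 to stage 6 its means were 8.03 ± 1.87, 6.05 ± 0.56, 5.07 ± 1.61 and 3.96 ± 0.14 (SD, n = 3), a difference of stage 2 from their mean of 4.72 (SE 0.58, limma adjusted p = 4.44e-05). AMY3D, an alpha-amylase of germinating embryos that sugar represses, measured 12.99, 13.25 and 13.56 in the leaf primordium arrays and 12.30, 11.54 and 12.58 in the stage 2 arrays, and its stage 6 mean was 7.10 ± 1.58. Its difference from later stages was 2.98 (SE 0.71, limma adjusted p = 0.00855), or 4.89 (adjusted p = 0.00935) with the covariate, and the call was lost without stage 2 replicate 1 or replicate 3. A second, dim probe set was lower at stage 2 than in leaf primordium (-1.55) and not called against later stages. OSH1 fell from the values above to 6.72 ± 1.89 at stage 3 and 5.36 ± 0.50 at stage 6, a difference of 2.98 (SE 0.46, limma adjusted p = 0.000349), which was 1.80 (adjusted p = 0.13) with the covariate.

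Others were higher at stage 2 than in leaf primordium and than in later stamens. OsWOX11 had a mean of 5.54 ± 0.65 at stage 3 and 3.95 ± 0.12 at stage 6, so it was above both with differences of 4.14 and 4.09 (limma adjusted p = 4.05e-08 for the second). The second difference was 4.42 (adjusted p = 2.65e-05) with the covariate. APX5, an ascorbate peroxidase, measured 4.03, 4.14 and 3.83 in the leaf primordium arrays and 9.53, 9.58 and 9.01 in the stage 2 arrays, a difference of 5.38 (SE 0.96, limma adjusted p = 0.000354), and 4.26 (SE 0.76, limma adjusted p = 0.00115) from later stages. Its later groups were uneven, with 6.02 ± 2.34 at stage 3 and 5.70 ± 2.40 at stage 6, and with the covariate neither difference was called (3.24 and 2.46, adjusted p = 0.113 and 0.236). CAT-A, a catalase, OsHox14, an HD-Zip factor, and LTP2-B, a lipid transfer protein, were above the later stages by 3.49, 2.91 and 3.32 and above leaf primordium by 3.98, 3.38 and 3.44. In expanded leaf CAT-A and LTP2-B were brighter still (11.70 and 12.47), OsHox14 was not (3.72). LTP2-B had 2 further probe sets that were not called in either comparison, and 1 further probe set of CAT-A was not called against leaf primordium.

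Other genes were lower at stage 2 than later. BHLH142 had means of 4.69 ± 1.12 at stage 2, 7.88 ± 1.04 at stage 3 and 9.89 ± 0.16 at stage 6, a difference of -4.35 (SE 0.36, limma adjusted p = 1.03e-06). OsSGS3, whose Arabidopsis counterpart acts in the trans-acting siRNA pathway, had 9.67 ± 0.22, 12.19 ± 0.76 and 13.29 ± 0.44 at the same stages (-3.04, SE 0.23, limma adjusted p = 2.77e-07), by a probe set that was not called against leaf primordium (0.10). Its other probe set was above leaf primordium by 1.96 and differed from the later stages by -1.10. OsWOX6, of the WUSCHEL-related homeobox family, and ILL8, named after enzymes that release auxin from conjugates, differed by -3.11 and -3.53. MSP1, above leaf primordium by 2.20, differed from the later stages by -1.51 (limma adjusted p = 0.000771). GAMYB, a gibberellin-responsive factor of anthers, was not called against leaf primordium (0.63) and was lower than in the later stages (-1.93, adjusted p = 7.25e-05).

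**Figure D5:**
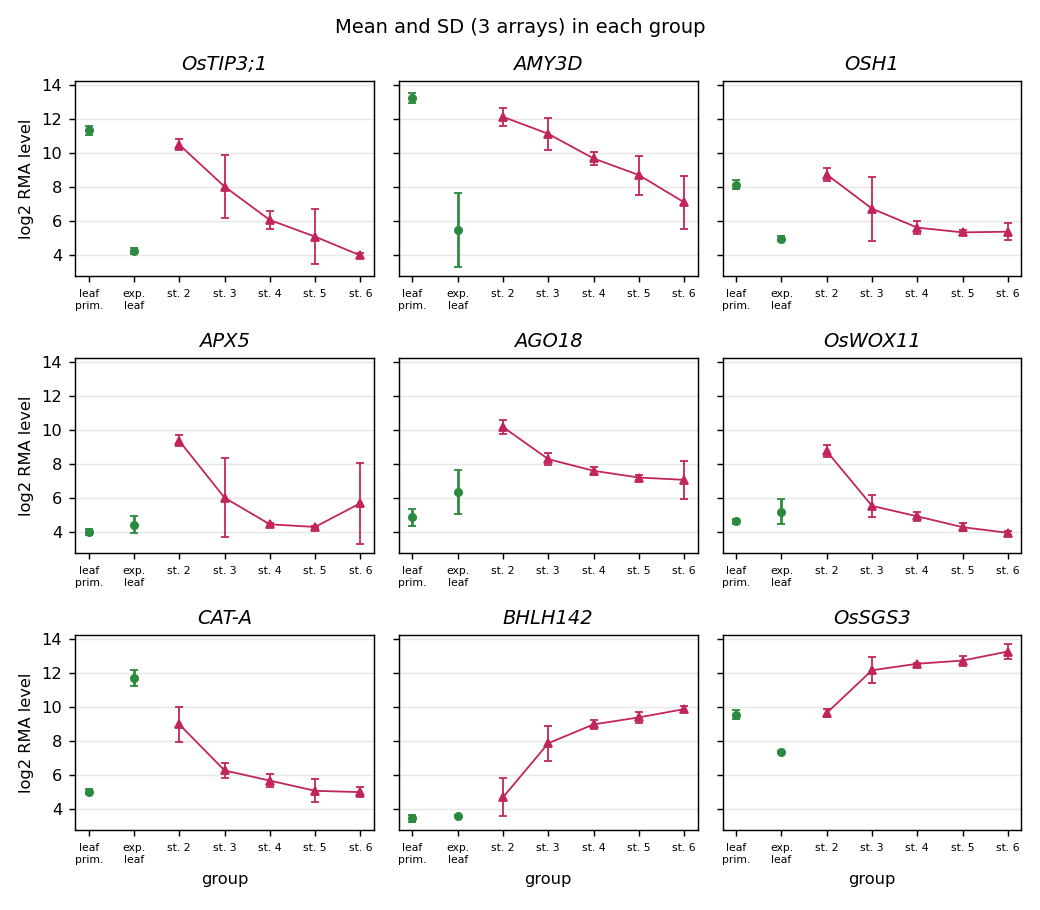
Mean level (log2 RMA) with SD of 3 arrays in leaf primordium, expanded leaf (circles) and stamen stages 2 to 6 (triangles, joined) for 9 genes. OsTIP3;1, AMY3D and OSH1 are high in leaf primordium and at stage 2 and fall in later stamens. APX5, AGO18, OsWOX11 and CAT-A are above leaf primordium and highest among the stamen stages at stage 2. BHLH142 and the OsSGS3 probe set drawn are at or near their leaf primordium level at stage 2 and higher afterwards. The other OsSGS3 probe set, not drawn, was called higher at stage 2 than in leaf primordium.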

How the data were processed

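The values are log2 expression values that the authors deposited in a series matrix after RMA, per the submitters' processing notes. The RMA software and version are not given in the sources used here. RMA quantile-normalizes all arrays together, so a shift of total RNA is not seen. limma 3.58.1 in R 4.3.3 was fitted to 57258 probe sets over all 21 arrays with a mean for each of 7 groups (14 residual degrees of freedom), after 123 array controls were left out, and was checked on simulated data. Probe sets were named through the platform annotation and updated through RefSeq gene names: 22436 had 1 gene, 95 several and 34727 none here. In a list, each gene is its probe set with the highest mean over the 21 arrays. Named genes were the 20 largest rises and falls against leaf primordium, the 10 largest each way against later stages, and up to 6 of each of 45 lists or every member of lists with 8 or fewer, and every floral MADS-box gene was added. MCM2, MCM7, MCM8 and MCM9 were named after their values were seen. The comparison, its lists and its tests were chosen with earlier results of these data known. Replicate numbers come from the labels. In the comparison with leaf primordium, same-numbered arrays deviated together from their group means (r = 0.215, 0.148 and 0.276), and the block was fitted too. No label states a pairing, arrays of unlike number were not compared, and what same-numbered arrays share was not tested. Each array is 1 hybridisation, and 3 arrays a group limit the precision.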

Additional observations from a re-analysis of the deposited data

Results flagged for a closer look

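Among the 20 largest rises over leaf primordium, 3 genes also differed between stage 2 and the mean of stages 3 to 6, by limma's test of that difference. For APX5 the difference was 4.26 (adjusted p = 0.00115), with means of 4.00 in leaf primordium, 9.37 at stage 2 and 5.11 later, and 2.46 (adjusted p = 0.236) with the 3' to 5' term. For AGO18 it was 2.64 (adjusted p = 0.000478), with means of 4.87, 10.19 and 7.55, and 1.09 (adjusted p = 0.209) with that term. For OsPID it was 1.46 (adjusted p = 0.0343), with means of 5.89, 11.01 and 9.55, and 1.53 (adjusted p = 0.266) with that term. The OsPID call was lost without any 1 of the 3 stage 2 arrays and without replicate 2 of stage 4, 5 or 6.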

How the results depend on the processing

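Leaving out 1 array at a time gave 4173 to 4434 probe sets higher and 3972 to 4480 lower than in leaf primordium, and 981 to 1293 higher and 1054 to 1323 lower than in later stages. With no fold threshold the counts were 7526 and 7783 against leaf primordium and 3183 and 4578 against later stages. At 4-fold they were 1582 and 1380, and 335 and 95. Against later stages the 3' to 5' covariate gave 721 higher and 788 lower, and without the expanded leaf arrays as well 341 and 202. Probe sets with no _s, _x or _a suffix gave 827 lower, from fewer probe sets tested. These last 2 alternatives were chosen after the data were seen. Among the genes called in the main fit or in the alternative, a few changed sign. Sign changes of genes called in neither fit were not counted. CHLG against leaf primordium went to -0.11 with the covariate, and OSH6 to -1.02 when the expanded leaf arrays were left out too. Against later stages OsMADS58 was -2.09 with the covariate, and OsMADS6 and OsPID were -0.17 and -0.23 without the expanded leaf arrays too. The cause was not tested. With the replicate number as a block, 4494 were higher and 4338 lower than in leaf primordium. Of the 300 probe sets followed there, CKS1, BHLH142 and OSPIN10a gained a call and OsWRKY24 lost it, and the block changed no other of those calls. Against later stages same-numbered arrays deviated together in 4 of 12 pairs (r from -0.31 to 0.27). The block gave 1227 and 1251 there, with a call gained by rab25. With the covariate 256 of the 300 stayed on the same side of the threshold against leaf primordium and 271 against later stages. Signal near background limits what dim probe sets can show.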
